A study of Mus musculus with 23 samples.

Results

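In the livers of 23 mice, with 1 array per mouse, 9 genes were followed that glucocorticoid hormones and acute stress are known to induce. They were chosen by gene symbol: Fkbp5, Tsc22d3 (also called Gilz), Sgk1, Dusp1, Cdkn1a, Zbtb16, Klf9, Ddit4 and Errfi1. All 9 were on the array, with 1 feature each, among 16915 listed genes and 18688 features with a listed gene. Corticosterone, the main glucocorticoid of mice, is released from the adrenal gland when an animal is handled, confined or anaesthetised. In the liver it binds the glucocorticoid receptor, which then leaves its chaperones, enters the nucleus and binds DNA at glucocorticoid response elements. Several of the genes it induces act back on the response, by lowering the receptor's affinity for hormone or by damping inflammatory, growth and nutrient signals.

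The 23 C57BL/6 mice were female and 12 to 13 weeks old per the labels, and no transgene or other allele is given. The 8 CB mice inhaled Printex 90 carbon black and the 7 DEP mice inhaled SRM 2975 diesel exhaust particles, both at 20 mg/m3. The 8 air mice inhaled filtered air. Each exposure lasted 90 min and was given 4 times, on consecutive days. Livers were taken 90 minutes after the last exposure per the labels, while the study's methods give a shorter time and a younger age. All groups, air mice included, were exposed in the same way apart from the particles, were anaesthetised at the end, and had blood drawn and the lungs lavaged. No mice without exposure or handling are among these 23 samples, so the values compare particles with air and not handled with unhandled animals. Whole liver RNA was labelled with Cy5 and hybridised beside a universal mouse reference RNA labelled with Cy3, with no exchange of dyes. The value given for a gene is the log2 ratio of liver to reference after loess normalization within each array, so 1 unit is a 2-fold difference. Levels of different genes cannot be ranked from such ratios. The mice came from 3 rounds of exposure. The first round held 1 CB, 1 DEP and 2 air mice, the second 6 CB, 2 DEP and 4 air mice, and the last 1 CB, 4 DEP and 2 air mice.

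Motifs were searched in the 250 bases before each start site listed by RefSeq (build GRCm38.p6), on both strands. In that table were 8 of the 9 genes, with 17 start sites in all, and Zbtb16 was not matched. The full palindromic glucocorticoid response element, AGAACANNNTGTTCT, was in 3 of 32851 windows of this length (0.00913%), and 1 of these was a window of Sgk1. The hexamer that makes up each arm, AGAACA, was in 16.1% of all windows. It was in 4 of the 17 windows of the 8 genes, those being of Sgk1, which has 6 windows, and Tsc22d3, which has 3. The cAMP response element TGACGTCA was in 1.55% of all windows, and in 2 of these 17, in Dusp1 and Errfi1. The E-box CACGTG, which clock factors bind, was in 6.02% of all windows, and in 3 of these 17, in Fkbp5, Sgk1 and Dusp1. In Sgk1 it overlaps another hexamer. The 4 windows below hold the receptor's motif or the cAMP motif, with that motif in capitals and each written 5′ to 3′ on the gene's strand. Windows 1 and 4 of Sgk1, in order of listed start, also hold the hexamer and are not shown. It lies there 195 to 190 and 13 to 8 bases before the start. In Sgk1 (the fifth listed start, chr10:21993640-21993889, plus strand) the capitals lie 189 to 175 bases before the start. In Tsc22d3 (chrX:140600523-140600772, minus strand) they mark a hexamer read from the other strand, 185 to 180 bases before the start. In Dusp1 (chr17:26508473-26508722, minus strand) they lie 143 to 136 bases before the start, and in Errfi1 (the second listed start, chr4:150854820-150855069, plus strand) 51 to 44 bases before it.
Sgk1: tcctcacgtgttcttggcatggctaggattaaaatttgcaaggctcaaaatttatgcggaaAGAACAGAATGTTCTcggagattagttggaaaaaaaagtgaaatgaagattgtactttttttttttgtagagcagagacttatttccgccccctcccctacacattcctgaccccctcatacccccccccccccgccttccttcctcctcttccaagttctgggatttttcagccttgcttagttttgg
Tsc22d3: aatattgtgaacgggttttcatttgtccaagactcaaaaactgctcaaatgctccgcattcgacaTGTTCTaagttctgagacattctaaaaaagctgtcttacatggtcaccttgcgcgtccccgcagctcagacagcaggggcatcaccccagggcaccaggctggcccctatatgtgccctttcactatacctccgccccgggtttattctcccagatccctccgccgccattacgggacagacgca
Dusp1: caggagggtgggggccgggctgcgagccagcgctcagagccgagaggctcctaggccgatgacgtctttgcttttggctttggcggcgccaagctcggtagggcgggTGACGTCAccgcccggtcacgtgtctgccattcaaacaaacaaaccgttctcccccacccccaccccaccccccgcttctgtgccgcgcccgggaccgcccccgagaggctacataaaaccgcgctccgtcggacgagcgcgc
Errfi1: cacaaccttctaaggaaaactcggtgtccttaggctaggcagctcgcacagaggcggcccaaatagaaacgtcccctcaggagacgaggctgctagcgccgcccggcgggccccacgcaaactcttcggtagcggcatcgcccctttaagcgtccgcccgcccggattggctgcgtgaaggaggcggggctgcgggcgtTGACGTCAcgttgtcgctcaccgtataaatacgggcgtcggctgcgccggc
A match to these letters is a description of the window and does not show that a factor was bound there.

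The signals of the arrays overlapped between the groups. Their median Cy5 signals lay between 268 and 549 in CB mice, 312 and 511 in DEP mice and 262 and 541.5 in air mice. Spots flagged absent in Cy5 were 20.5% to 40.0% in CB, 19.2% to 37.4% in DEP and 13.8% to 41.9% in air, with medians of 30.4%, 31.8% and 23.3%. Spots at the scanner's maximum numbered 72 to 291 in CB, 61 to 422 in DEP and 59 to 271 in air, with medians of 103, 127 and 177.5. The liver label was checked against 8 measured hepatocyte markers, none absent on most arrays and Alb, Apoa1, Apoa2 and Fgb mostly at the scanner's maximum, whose summed Cy5 signal was 657 to 1209 times the array median in CB, 707 to 1118 times in DEP and 675 to 990 times in air. Of 8 neutrophil markers, 1 was absent on all arrays and 4 on most. The summed signal of each marker list (macrophages, lymphocytes, neutrophils, endothelium, fibroblasts, bile duct, red cells, fat and pancreas) overlapped between the groups. For red cells this sum cannot compare the groups, since it rests mostly on Hba-a1, which was saturated on all 23 arrays. Of 3 red cell markers 1 was lower at an unadjusted p under 0.05 (limma) in CB minus air, against 5.94% of all features. In DEP minus air it was also 1, against 4.82%, namely Hba-a1 at −0.57 (adjusted p = 0.997, limma). With its Cy5 spot at the scanner's maximum on all 23 arrays, a difference in Hba-a1 does not measure its RNA in liver. Of the 8 hepatocyte markers 2 were lower at an unadjusted p under 0.05 (limma) in CB minus air and 3 in DEP minus air. The shares of all features were again 5.94% and 4.82%, and 0 markers passed after adjustment. Among them were Apoa2 (−0.53 in CB minus air) and Fgb (−0.57 in DEP minus air). Both were also saturated on all 23 arrays, so their differences do not measure liver RNA either. In whole liver, fewer cells of a type and less RNA per cell cannot be told apart.

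None of the 9 genes differed between CB, DEP and air after adjustment over all 18688 features. By limma, 0% of all features passed at an adjusted p under 0.05 in CB minus air, 0% in DEP minus air and 0% in CB minus DEP. At an unadjusted p under 0.05 the counts were 1 of 9 (Sgk1) in CB minus air, against 5.94% of all features, 0 of 9 in DEP minus air, against 4.82%, and 1 of 9 (Sgk1) in CB minus DEP, against 3.44%. Below 0 in CB minus air were 7 of the 9 genes, with a median of −0.09 on the log2 scale, against 49.8% of all features and a median of 0.00. In DEP minus air 5 were below 0 (median −0.04), against 50.0% of all features, and 6 in CB minus DEP (median −0.05), against 50.1%. No gene of the 9 had groups that did not overlap in any of these 3 comparisons, against 0.0589%, 0.0107% and 0.0268% of all features in CB minus air, DEP minus air and CB minus DEP.

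**Figure D1:**
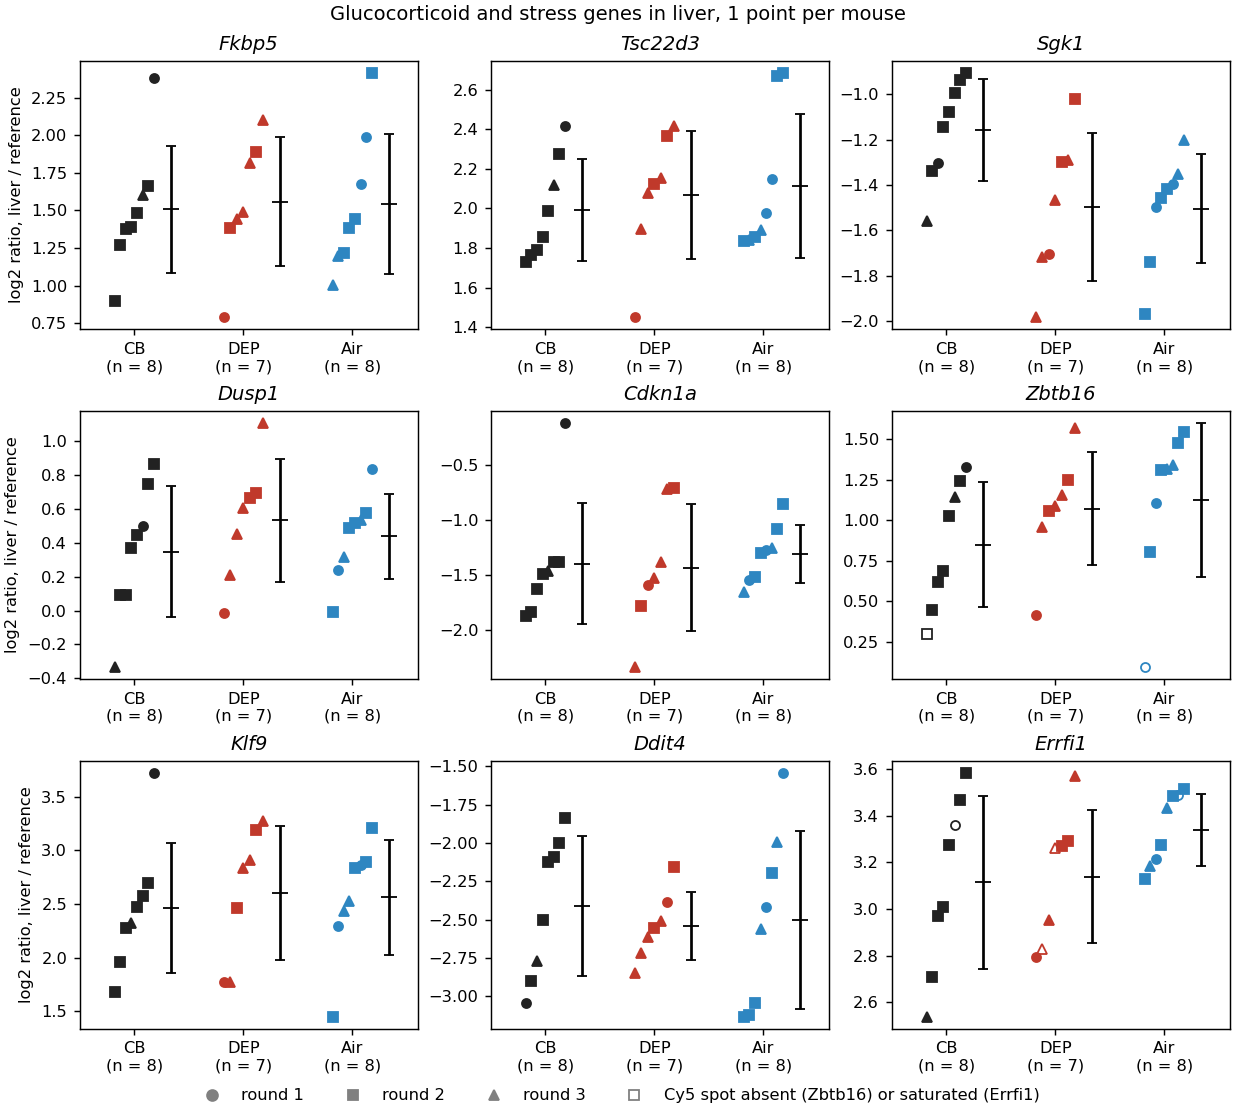
Log2 ratio of liver to reference (vertical axis) of each of the 9 genes in CB (n = 8), DEP (n = 7) and air (n = 8) mice, with 1 point per mouse, shaped by exposure round, and the mean and SD of each group beside the points. The groups overlap in every panel, and 7 of 8 CB mice lie above the air median of −1.44 for Sgk1.

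The first 3 genes limit the response to hormone or to inflammation. Fkbp5 encodes a co-chaperone that lowers the hormone affinity of the glucocorticoid receptor (NM_010220). Its lowest, median and highest log2 ratios were 0.90, 1.44 and 2.38 in CB mice, 0.79, 1.49 and 2.10 in DEP mice and 1.00, 1.41 and 2.41 in air mice. The means were 1.51 ± 0.42 (SD, n = 8) in CB, 1.56 ± 0.43 (SD, n = 7) in DEP and 1.54 ± 0.47 (SD, n = 8) in air. The ranges of the 3 groups overlapped, with CB mouse 445 and air mouse 49 at the top and DEP mouse 55 at the bottom. CB minus air was −0.03 (standard error 0.20, 95% confidence interval −0.45 to 0.39) and DEP minus air 0.02 (standard error 0.21, interval −0.42 to 0.45).

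Tsc22d3 encodes a leucine zipper protein that binds and holds back inflammatory transcription factors (AF024519). The lowest, median and highest log2 ratios of Tsc22d3 were 1.73, 1.92 and 2.42 in CB, 1.45, 2.12 and 2.41 in DEP and 1.84, 1.93 and 2.68 in air. The means were 1.99 ± 0.26, 2.07 ± 0.32 and 2.11 ± 0.36 in CB, DEP and air (SD, n = 8, 7 and 8). Air mice 49 and 50, both of the second round, had the highest values, and DEP mouse 55 the lowest. The difference of CB minus air was −0.12 (standard error 0.15, interval −0.43 to 0.19) and DEP minus air −0.04 (standard error 0.16, interval −0.37 to 0.28).

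Dusp1 encodes a phosphatase that switches off stress-activated MAP kinases, and is also an immediate early gene (NM_013642). Its lowest, median and highest log2 ratios were −0.33, 0.41 and 0.87 in CB, −0.01, 0.60 and 1.11 in DEP and −0.01, 0.50 and 0.84 in air. The means were 0.35 ± 0.39 in CB, 0.53 ± 0.36 in DEP and 0.44 ± 0.25 in air (SD, n = 8, 7 and 8). The single CB mouse of the last round was the lowest of all 23. CB minus air was −0.09 (standard error 0.16) and DEP minus air 0.09 (standard error 0.17), both well inside the spread within groups.

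Zbtb16 and Klf9 encode transcription factors. Zbtb16, a zinc finger repressor also called PLZF (NM_001033324), had Cy5 signals of 199 to 888.5 and was flagged absent in CB mouse 59 and air mouse 443. The Cy3 spot of the reference was flagged absent on 6 arrays for this gene, and on 1 array each for Fkbp5 and Klf9. Zbtb16 log2 ratios had a lowest, median and highest value of 0.30, 0.86 and 1.33 in CB, 0.41, 1.09 and 1.57 in DEP and 0.09, 1.31 and 1.54 in air. The absent spots gave the lowest value of their group in both cases. For CB minus air the difference was −0.28 (standard error 0.19, unadjusted p = 0.160 from limma), and DEP minus air −0.05 (standard error 0.20). Without the 2 arrays where the spot was absent CB minus air was −0.34 (unadjusted p = 0.0425), without air mouse 443 alone it was −0.42 (unadjusted p = 0.0167, adjusted p = 0.671 from limma) and without CB mouse 59 alone −0.20 (unadjusted p = 0.313).

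Klf9 encodes a Krüppel-like zinc finger factor that the receptor induces in many tissues (NM_010638). It varied most between mice of the 9, with an SD of 0.56 over the 23 mice, higher than that of 95.7% of all features. Its lowest, median and highest log2 ratios were 1.68, 2.398 and 3.72 in CB, 1.77, 2.84 and 3.27 in DEP and 1.45, 2.68 and 3.20 in air. CB mouse 445 was the highest, while the lowest mouse, air 54, was not low in Fkbp5. The CB minus air difference was −0.10 (standard error 0.27, interval −0.65 to 0.45) and DEP minus air 0.04 (standard error 0.28, interval −0.53 to 0.61).

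The other 4 genes act on ion transport, nutrient sensing, growth factor signalling and the cell cycle. Ddit4, also called REDD1, encodes an inhibitor of the mTORC1 growth pathway (NM_029083). In lowest, median and highest value its log2 ratios were −3.04, −2.31 and −1.83 in CB, −2.85, −2.56 and −2.16 in DEP and −3.13, −2.49 and −1.54 in air. The air mice spanned a wider range than either particle group. Its CB minus air difference was 0.09 (standard error 0.21) and DEP minus air −0.04 (standard error 0.22).

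Errfi1, also called Mig6, encodes a feedback inhibitor of the epidermal growth factor receptor (NM_133753). Its Cy5 spot was at the scanner's maximum in 4 mice (CB 445, DEP 51, DEP 57 and air 53), where the ratio is a lower bound. Its lowest, median and highest log2 ratios were 2.54, 3.14 and 3.58 in CB, 2.79, 3.26 and 3.57 in DEP and 3.13, 3.35 and 3.51 in air. No air mouse was under 3.13, while CB mice 48, 59, 446 and 835436 and, with unsaturated spots, DEP mice 55 and 835435 were. For Errfi1 CB minus air was −0.23 (standard error 0.14, unadjusted p = 0.114) and DEP minus air −0.20 (standard error 0.14, unadjusted p = 0.171, limma). Leaving out 1 mouse moved CB minus air either way, to −0.29 (unadjusted p = 0.0415) without CB mouse 47 and to −0.14 (unadjusted p = 0.282) without CB mouse 835436. With the Cy5 signal alone, relative to the array median, CB minus air was −0.09 and DEP minus air −0.04. The Cy3 signal of the reference, taken the same way, differed by 0.31 and 0.23.

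Cdkn1a encodes p21, an inhibitor of cyclin-dependent kinases that p53 also induces (NM_007669). The CB, DEP and air mice had lowest, median and highest log2 ratios of −1.88, −1.48 and −0.11 in CB, −2.34, −1.53 and −0.71 in DEP and −1.66, −1.29 and −0.85 in air. The CB mouse at −0.11, mouse 445, stood apart from the 7 others, which were at −1.38 or below. For Cdkn1a CB minus air was −0.09 (standard error 0.22), and −0.27 (unadjusted p = 0.157) without mouse 445, and DEP minus air was −0.12 (standard error 0.23).

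Sgk1, the serum and glucocorticoid regulated kinase, raises the activity of ion channels and transporters (NM_011361). Its lowest, median and highest log2 ratios were −1.56, −1.11 and −0.91 in CB, −1.98, −1.47 and −1.02 in DEP and −1.97, −1.44 and −1.20 in air. The means were −1.16 ± 0.23 in CB, −1.50 ± 0.33 in DEP and −1.50 ± 0.24 in air (SD, n = 8, 7 and 8). CB mice were thus at the upper end, with 7 of 8 above the air median, while the groups overlapped. CB minus air was 0.35 (standard error 0.13, interval 0.08 to 0.61, unadjusted p = 0.0132, adjusted p = 0.799 from limma), with an exact two-sided permutation p of 0.0098. CB minus DEP was 0.34 (standard error 0.13, interval 0.06 to 0.62, unadjusted p = 0.0179, adjusted p = 1.00), with an exact two-sided permutation p of 0.0342. DEP minus air was 0.01 (standard error 0.13, interval −0.27 to 0.28). These p-values did not survive the adjustment over all features, where Sgk1 ranked 308 in CB minus air. With each array centred on its median instead of loess CB minus air was 0.05 (unadjusted p = 0.786), where the median of all features moved to −0.11, and with the Cy5 signal alone it was 0.29 (unadjusted p = 0.302).

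**Figure D2:**
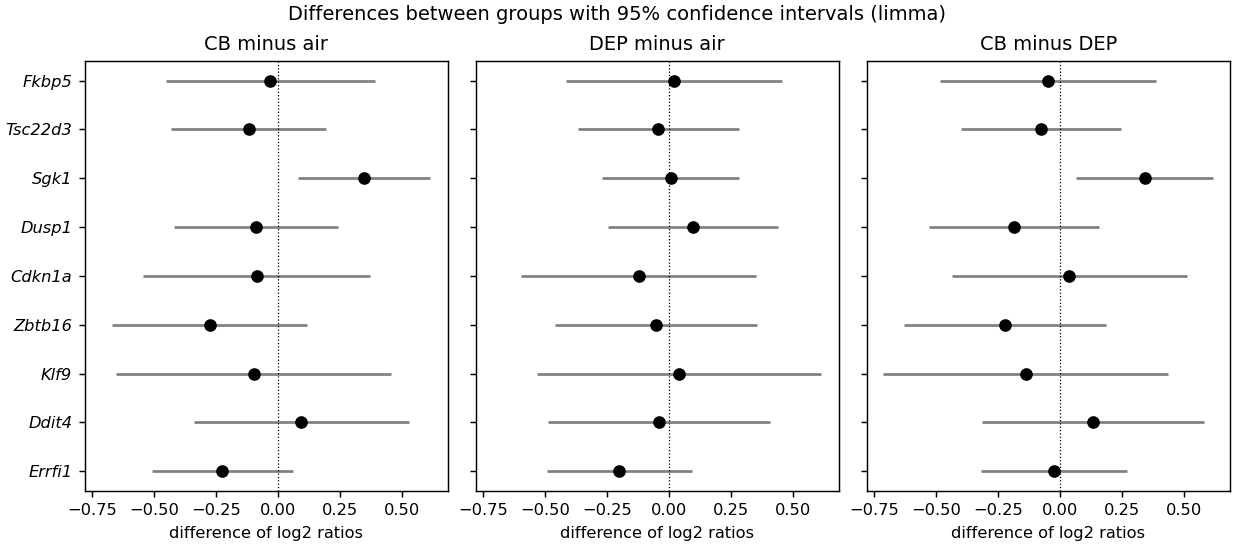
Differences of log2 ratios (horizontal axis) for each gene in CB minus air, DEP minus air and CB minus DEP, with points for the limma estimates and lines for 95% confidence intervals. Only the intervals of Sgk1 in CB minus air (0.08 to 0.61) and CB minus DEP (0.06 to 0.62) lie off 0, before any adjustment for the number of features.

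The Sgk1 differences were also taken within each round of exposure, since the rounds held unequal numbers of each group. In the first round Sgk1 was −1.30 in the CB mouse, −1.71 in the DEP mouse and −1.50 and −1.39 in the air mice. In the second round it was −1.34, −1.14, −1.08, −0.99, −0.94 and −0.91 in CB mice, −1.30 and −1.02 in DEP mice and −1.97, −1.74, −1.46 and −1.42 in air mice. In that round all 6 CB mice and both DEP mice lay above all 4 air mice, a separation that 1.30% of all features showed for CB and air in either direction and 11.8% for DEP and air. In the last round Sgk1 was −1.56 in the CB mouse, −1.98, −1.72, −1.47 and −1.29 in DEP mice and −1.35 and −1.20 in air mice, so that the particle mice were mostly below the air mice. In the second round alone CB minus air was 0.58 (standard error 0.14, unadjusted p = 0.0006, adjusted p = 0.844 from limma), and in the last, which has 1 CB mouse, it was −0.28. The same values for DEP minus air were 0.48 (standard error 0.19, unadjusted p = 0.020) and −0.34. The change of these differences between the rounds (last minus second) was −0.86 (standard error 0.30, unadjusted p = 0.011, adjusted p = 0.489) for CB minus air and −0.82 (standard error 0.27, unadjusted p = 0.006, adjusted p = 0.978) for DEP minus air, unadjusted p-values that 5.73% and 4.68% of all features had under 0.05 in these tests. With the round as a block over all mice CB minus air was 0.31 (unadjusted p = 0.0295) and CB minus DEP 0.28 (unadjusted p = 0.0779).

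Within the second round 3 of 9 genes had an unadjusted p under 0.05 in CB minus air, against 5.72% of all features: Sgk1, Ddit4 at 0.63 and Zbtb16 at −0.56. In DEP minus air of that round it was Sgk1 alone, against 3.98% of all features. Within the last round 2 of 9 did so in CB minus air, against 6.89%: Dusp1 at −0.76 and Errfi1 at −0.77, both resting on 1 CB mouse. In DEP minus air of the last round it was Fkbp5 at 0.61, against 6.22% of all features. None of these passed after adjustment. For Ddit4 the difference between the rounds (last minus second) in CB minus air was −1.12 (standard error 0.49, unadjusted p = 0.032, adjusted p = 0.778 from limma), which rests on 1 CB mouse in the last round.

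The level of the 9 genes was similar from round to round. With group as a term, last minus second round lay between −0.17 for Errfi1 and 0.20 for Zbtb16 (standard error 0.15 and 0.19), and 0 of 9 genes had an unadjusted p under 0.05, against 6.44% of all features and 0% after adjustment. Below 0 were 6 of the 9, against 54.6% of all features. Over all 3 rounds the F test also gave 0 of 9, against 6.28% of all features unadjusted and 0% adjusted. The lowest unadjusted p was that of Zbtb16 (0.120), whose means were 0.74, 0.98 and 1.22 in the first, second and last round. The means of Klf9, the most variable gene, were 2.66, 2.48 and 2.58 in the same order. The last round nearly coincides with 1 set of arrays, so round and array set can scarcely be told apart there.

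**Figure D3:**
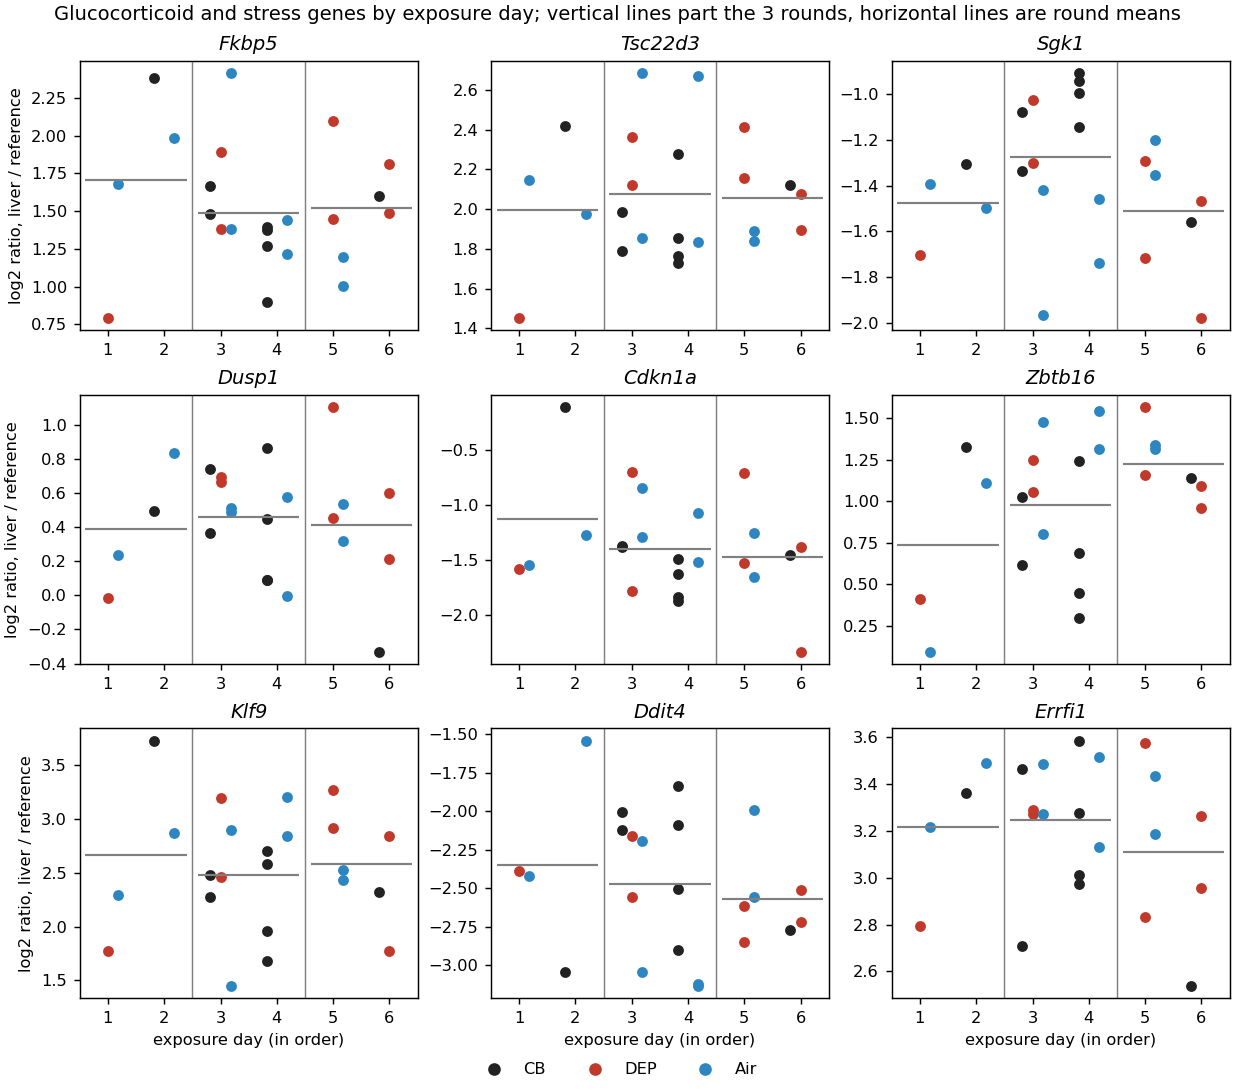
Log2 ratio of liver to reference (vertical axis) of each gene by exposure day in order (horizontal axis), with 1 point per mouse coloured by group. Vertical lines part the 3 rounds and grey horizontal lines give round means. For Sgk1 the particle mice of the second round all lie above the 4 air mice of that round, and no gene has rounds that separate.

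Apart from Sgk1, values differed more from mouse to mouse than between the groups, and in several genes they did so together. With 1 array per mouse, differences between mice and between arrays cannot be told apart. For Sgk1 the SD over the 23 mice was 0.30, against 0.35 in CB minus air and 0.34 in CB minus DEP. Over the 23 mice the SD of a gene was 0.29 to 0.56, against a median of 0.243 over all features. Of the 36 pairs of genes, 6 had a Pearson r with an adjusted p under 0.05 (two-sided permutation test, Benjamini-Hochberg over the 36 pairs), 5 positive and 1 negative, and all 6 also passed by Spearman's rho, as did 3 others. The positive ones joined Fkbp5, Tsc22d3, Zbtb16 and Klf9, a grouping seen after the values were known.

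Fkbp5 and Tsc22d3 had r = 0.66 and rho = 0.65 (permutation p = 0.00069 and adjusted p = 0.0204 for r, adjusted p = 0.0165 for rho). Fkbp5 and Klf9 had r = 0.62 and rho = 0.52, with permutation adjusted p = 0.0204 and 0.0465. Tsc22d3 and Klf9 had r = 0.62 and rho = 0.63, with adjusted p = 0.0204 and 0.0165. Mice high in one of these genes were thus mostly high in the others, as in CB mouse 445 (2.38 for Fkbp5, 2.42 for Tsc22d3 and 3.72 for Klf9), with DEP mouse 55 at the other end (0.79, 1.45 and 1.77). Zbtb16 and Klf9 had r = 0.58 and rho = 0.67 (adjusted p = 0.0257 and 0.0165), and Tsc22d3 and Zbtb16 r = 0.56 and rho = 0.56 (adjusted p = 0.0322 and 0.0365). Fkbp5 and Zbtb16 had r = 0.42, the lowest of the 6 pairs among these 4 genes, and did not pass. Tsc22d3 and Ddit4 went opposite ways (r = −0.59, rho = −0.63, adjusted p = 0.0257 and 0.0165), but r was −0.16 with median centring and 0.16 with the Cy5 signal alone.

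**Figure D4:**
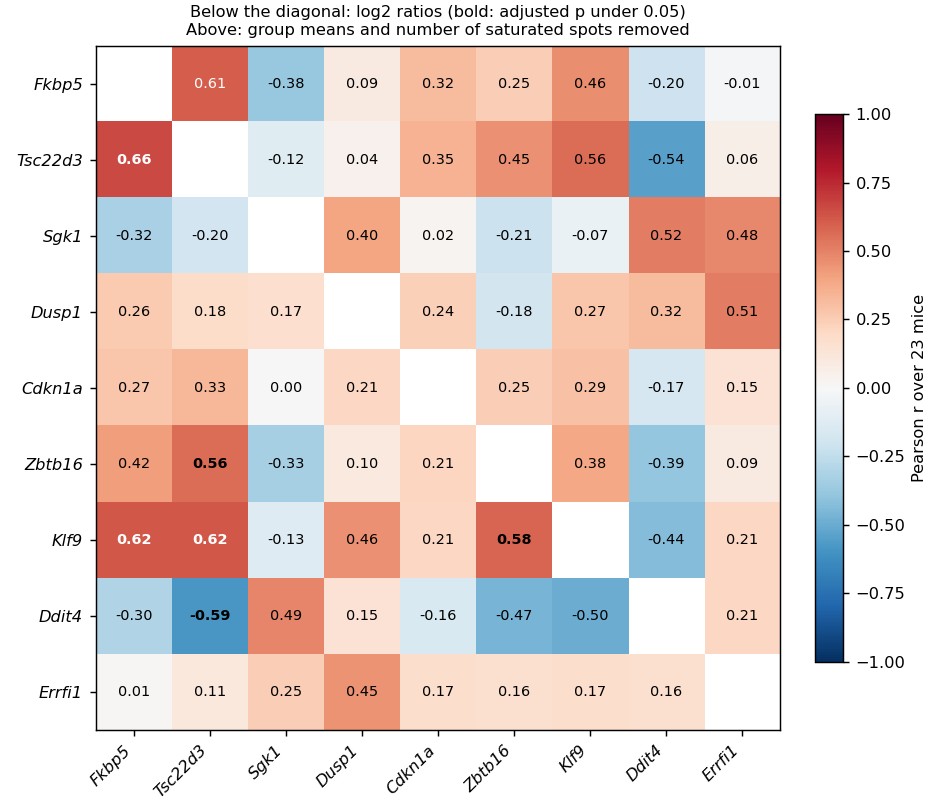
Pearson r over the 23 mice for each pair of the 9 genes, in colour and digits. Below the diagonal are the log2 ratios, with values of adjusted p under 0.05 in bold, and above it the same after removing group means and the number of saturated spots. The 5 positive bold values, 0.56 to 0.66, lie among Fkbp5, Tsc22d3, Zbtb16 and Klf9.

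Leaving out the 2 mice farthest from the median of the first gene named gave r = 0.51 for Fkbp5 with Tsc22d3, 0.51 for Fkbp5 with Klf9, 0.66 for Tsc22d3 with Klf9, 0.73 for Zbtb16 with Klf9, 0.44 for Tsc22d3 with Zbtb16 and −0.44 for Tsc22d3 with Ddit4, of which 2 pairs still passed. Within the second round (12 mice) these r, in the same order, were 0.66, 0.43, 0.56, 0.56, 0.75 and −0.69, and within the last round (7 mice) 0.48, 0.50, 0.59, 0.68, 0.02 and −0.46. After group and round means were removed they were 0.71, 0.61, 0.64, 0.68, 0.57 and −0.58.

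The number of saturated spots on an array moved with some of the same genes. Its log2 had r = 0.67 with Klf9, 0.53 with Zbtb16, 0.47 with Fkbp5, 0.36 with Tsc22d3, 0.40 with Dusp1 and between −0.28 and 0.07 with the 4 others. With group and that number removed, the 6 r were 0.61, 0.46, 0.56, 0.38, 0.45 and −0.54 in the order above, and 0 pairs passed (adjusted p = 0.084 to 0.215, permutation). Without CB mouse 445 they were 0.63, 0.52, 0.58, 0.58, 0.54 and −0.55, and 0 pairs passed (adjusted p = 0.062 to 0.063). Other array measures moved with some genes too. The log2 of the median Cy3 signal of the reference had r = 0.61 with Klf9, 0.54 with Dusp1 and 0.44 with Zbtb16. It had r = 0.25 with Fkbp5 and 0.19 with Tsc22d3. For the share of spots absent in Cy5, r was −0.49, −0.52, −0.52, −0.06 and −0.25 in the same order. The part of these array measures in the correlations was not tested further.

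Some markers of other cell types also moved with these genes, while others of the same lists did not. Among 7 measured macrophage and Kupffer cell markers r lay between −0.15 and 0.57 with Fkbp5 (median 0.36, 5 above 0) and between −0.57 and 0.59 with Klf9 (median 0.34, 6 above 0). The Kupffer cell genes Clec4f, Cd5l and Vsig4 had r = 0.57, 0.57 and 0.56 with Fkbp5 and 0.59, 0.52 and 0.55 with Klf9. Alas2, of haem synthesis in red cell precursors, had r = 0.64 with both Fkbp5 and Tsc22d3, while its list of 3 genes ranged from −0.17 to 0.64 with Fkbp5. Amy2, a pancreatic amylase, and Reln, a stellate cell marker, had r = 0.75 and 0.74 with Klf9, the highest of their lists. With Klf9 the 6 pancreatic genes ranged from 0.06 to 0.75 (median 0.12, 6 above 0). The 8 stellate and fibroblast genes ranged from −0.63 to 0.74 (median 0.05, 4 above 0). With Fkbp5 the median was 0.27 over 8 endothelial markers, 0.19 over 5 fat cell markers, 0.07 over 9 lymphocyte markers, 0.02 over 5 bile duct markers, −0.04 over 8 neutrophil markers and −0.06 over 8 hepatocyte markers. The part of these cell types in the correlations was not tested.

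**Figure D5:**
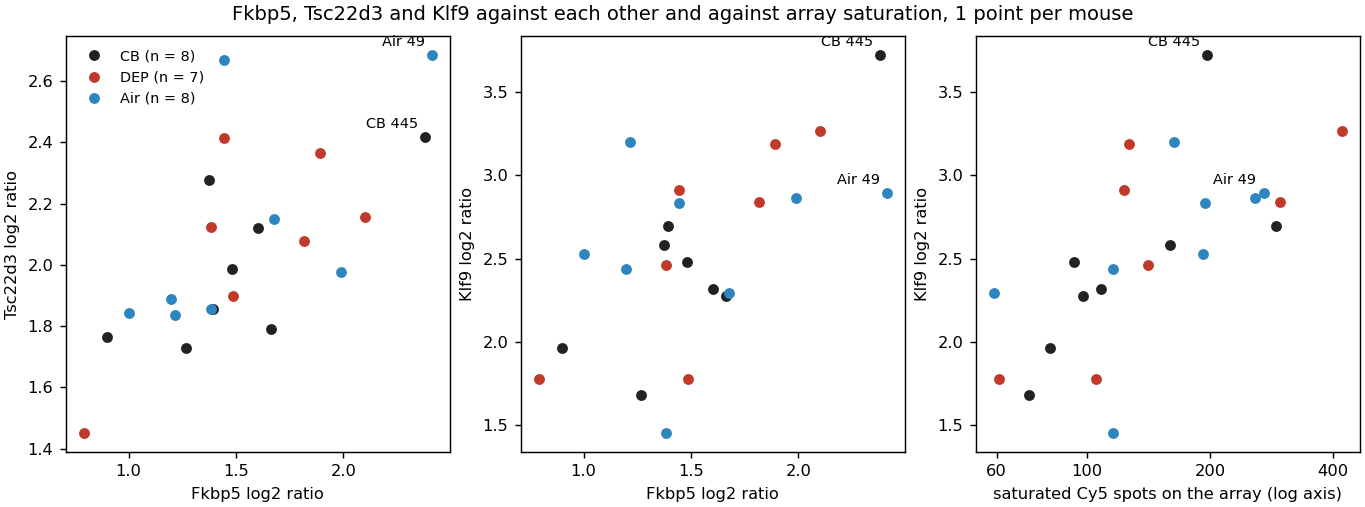
Tsc22d3 and Klf9 log2 ratios against that of Fkbp5, and Klf9 against the number of saturated Cy5 spots on the array (log axis), with 1 point per mouse coloured by group. CB mouse 445 and air mouse 49 are marked at the upper right of the first panel, and the groups mix along each trend.

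For each gene the 2 most similar of 12188 other genes (highest r of log2 ratio over 23 mice, with no saturated spot) were Igfbp4 and Itih1 for Fkbp5 (both 0.85), Zfp84 and Macir for Tsc22d3 (both 0.76), Zdhhc5 and F9 for Klf9 (0.88 and 0.86) and Shld2 and Alg13 for Zbtb16 (0.82 and 0.81). They were Nek6 and Rnf7 for Sgk1 (0.73 and 0.66), Olfr460 and 1700017G19Rik for Dusp1 (0.74 and 0.72), Btnl9 and Eif1a for Cdkn1a (both 0.75), Igf2 and Mvb12b for Ddit4 (both 0.69) and Crtc3 and B3gnt7 for Errfi1 (0.72 and 0.70). These are descriptions over arrays that share the reference RNA and the normalization. None of the 9 genes was closest to another of the 9. Among Fkbp5, Tsc22d3, Zbtb16 and Klf9, the share of genes with a larger absolute r than the partner had ran from 0.41% (Tsc22d3 with Fkbp5 as partner) to 18.9% (Fkbp5 with Zbtb16), and with Klf9 it was 4.57% for Fkbp5, 4.55% for Tsc22d3 and 6.94% for Zbtb16.

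Among 10 measured genes of the receptor, its chaperones and the supply of corticosteroid, 0 passed after adjustment, and unadjusted 1 was lower and 0 higher in CB minus air (median −0.09) and likewise in DEP minus air (median −0.09), against 5.94% and 4.82% of all features. That gene was Serpina6, corticosteroid-binding globulin, which the liver secretes to carry the hormone in blood. Its log2 ratio averaged 3.60 ± 0.51 in CB, 3.69 ± 0.28 in DEP and 4.18 ± 0.30 in air mice (SD, n = 8, 7 and 8), and CB minus air was −0.57 (standard error 0.18, unadjusted p = 0.004, adjusted p = 0.634) and DEP minus air −0.48 (unadjusted p = 0.015, limma). Its Cy5 spot was saturated on 6 of 23 arrays, where the ratio is a lower bound. Nr3c1, the receptor itself, averaged 0.00 ± 0.16 in CB, −0.18 ± 0.22 in DEP and −0.07 ± 0.14 in air, and CB minus air was 0.08 (standard error 0.09). Between rounds 2 of the 10 had an unadjusted p under 0.05, against 6.44% of all features, and both were lower in the last. They were Hsd11b1, which regenerates active corticosteroid in liver, at −0.49 (standard error 0.11, adjusted p = 0.663, saturated on 14 arrays), and the chaperone gene Hspa8 at −0.34.

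Among 23 other genes that glucocorticoids induce in liver, 0 passed after adjustment and 16 were below 0 in CB minus air (median −0.09), against 49.8% of all features, and 19 in DEP minus air (median −0.16), against 50.0%. Unadjusted, 1 gene had a p under 0.05 in each of CB minus air, DEP minus air and CB minus DEP, against 5.94%, 4.82% and 3.44% of all features. Lpin1, a phosphatidate phosphatase of fat synthesis, averaged 2.70 ± 0.27 in CB, 2.91 ± 0.19 in DEP and 3.07 ± 0.30 in air, and CB minus air was −0.37 (standard error 0.13, unadjusted p = 0.008, adjusted p = 0.720 from limma). Angptl4, an inhibitor of lipoprotein lipase, averaged 1.93 ± 0.67 in DEP and 2.61 ± 0.60 in air, with DEP minus air at −0.68 (standard error 0.25, unadjusted p = 0.012) and 5 saturated arrays. Tdo2, which degrades tryptophan, was at −0.56 in CB minus DEP (unadjusted p = 0.048). Of the 23 genes 1 was higher and 3 were lower in last minus second round at an unadjusted p under 0.05, against 6.44% of all features: Cebpb at 0.47, and Glul at −0.54, Cps1 at −0.76 (saturated on 8 arrays) and Bcl6 at −0.32 (absent on 20 arrays). Across mice Arrdc2 had r = 0.75 with Fkbp5 and 0.61 with Klf9, and the clock gene Per1, which the receptor also induces, had r = 0.63 with Fkbp5, the highest values of a list whose median r with Fkbp5 was 0.00 (12 of 23 above 0). Others of the 23 went the opposite way or were near 0, with r = −0.43 for Snai2, −0.37 for Gadd45b, −0.21 for Pck1 and 0.17 for Tat. The median r of the list was −0.02 with Tsc22d3, 0.06 with Zbtb16 and 0.19 with Klf9.

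Of 20 immediate early genes 0 had an unadjusted p under 0.05 in CB minus air (median −0.08), against 5.94% of all features. In DEP minus air 1 was higher (median −0.01), against 4.82%. In CB minus DEP 2 were lower, Ier2 at −0.31 and Dusp6 at −0.41, against 3.44% of all features. Nr4a1, an orphan nuclear receptor induced within minutes of a stimulus, was at 0.43 in last minus second round (standard error 0.14, unadjusted p = 0.005). Of 14 p53 targets, in a list apart from Cdkn1a, 0 had an unadjusted p under 0.05 in any comparison of groups. The shares of all features there were 5.94%, 4.82% and 3.44%. The 3 targets with the smallest p were Ei24, at −0.21 in CB minus air, and Bbc3 and Perp, at 0.32 (unadjusted p = 0.017) and −0.22 in last minus second round. Of 9 targets of ATF4, the stress factor that also induces Ddit4, 0 had such a p in any comparison. The shares of all features were those above and 6.44% in last minus second round. The 3 with the smallest p were Phgdh at 0.27 and Psat1 at 0.40 in DEP minus air and Ddit3 at −0.51 in CB minus DEP.

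Of 14 clock output genes, which daily hormone and feeding rhythms set, 1 was lower in CB minus air at an unadjusted p under 0.05. In DEP minus air 0 had such a p, and the shares of all features were 5.94% and 4.82%. The gene lower in CB minus air was Per3, at −0.16 ± 0.24 in CB and 0.35 ± 0.75 in air, a difference of −0.51 (standard error 0.22, unadjusted p = 0.029, absent on 6 arrays). Cry1 was at 0.23 in CB minus DEP (standard error 0.09, unadjusted p = 0.012) and Nr1d1 at −0.38 (unadjusted p = 0.051). None of these passed after adjustment over all features by limma.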

How the data were processed

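Liver RNA of 23 mice was measured on 2-colour Agilent oligonucleotide arrays. The authors scanned and quantified the spots, and deposited the intensity of each channel with flags of absent spots. For the log2 ratios in the deposited tables the authors normalized each array by lowess, and the submitters' processing notes name R 2.4.1. These ratios served as an alternative.

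Here log2 ratios were computed from the deposited intensities by loess within each array (limma 3.58.1, R 4.3.3) on 18688 features that carry a gene name, out of 22575, with 3887 others left out. Each member has 1 feature. All mice entered 1 lmFit and eBayes fit, and rounds were tested with group as a term. Benjamini-Hochberg adjustment ran over all 18688 features. Single genes were also compared by exact permutation tests, and correlations by 100000 permutations with scipy 1.17.1. The members and lists were chosen with earlier results of these data known. Besides the members, the genes named are up to 3 per other list with the smallest p in any of 4 comparisons and the 2 most similar genes per member. Others named from the lists, such as Serpina6 in a further comparison, Nr3c1, Lpin1, Angptl4, Tdo2, Cebpb, Arrdc2 and Per1, and the single cell type markers, were chosen after their values were seen. The tests were checked on simulated data. Alternatives were other normalizations, blocks for round or array set, single rounds, array weights, filters, the Fs test and leaving out each mouse. The number of arrays limits the precision.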

Additional observations from a re-analysis of the deposited data

Results flagged for a closer look

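Cdkn1a in CB mouse 445 was at a log2 ratio of −0.11, against −1.38 in the next highest CB mouse and −1.88 in the lowest, a gap of 0.717 of the group's whole range and beyond what Dixon's test allows in a group of 8. This test was run on 27 groups (9 genes in 3 groups), and chance alone passes about 1 in 20. The same mouse had the highest Klf9 value of all 23, and the highest Fkbp5 value of the CB group.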

How the results depend on the processing

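The number of arrays limits every value. Saturated Cy5 spots limit Errfi1 (4 arrays), and absent spots limit Zbtb16 (2 arrays in Cy5 and 6 in Cy3), Fkbp5 and Klf9 (1 array each in Cy3), and the last round holds 1 CB mouse. None of the 9 genes passed at an adjusted p under 0.05 under any alternative run for the comparisons of groups and rounds. Of the values of single genes, 444 kept their direction and 65 turned under the settings, and 763 and 65 when 1 mouse was left out. The cause was not tested. The Fs test called 0 features, with 1206, 985, 663 and 1223 at an unadjusted p under 0.05 in the comparisons CB minus air, DEP minus air, then CB minus DEP and last minus second round, against 1110, 900, 643 and 1203 by limma. A filter on dim features left 15148 features and one on saturated features 18232, without Errfi1. The mean of several features of a gene gave no other value, since each gene has 1. No paired analysis was possible because every mouse has a number of its own and the groups share none.

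Scaling moved the balance of all features. With median centring their median was −0.11 in CB minus air, −0.04 in DEP minus air, −0.07 in CB minus DEP and 0.04 in last minus second round, with 32.8%, 38.8%, 34.5% and 60.4% above 0, against 50.2%, 50.0%, 49.9% and 45.4% with loess. With the Cy5 signal alone 55.7%, 57.8%, 49.6% and 36.02% were above 0. With median centring 285 features were called in CB minus air and 1 in last minus second round. There 3 of the 9 genes had an unadjusted p under 0.05 in CB minus air, against 23.5% of all features, and 0 in CB minus DEP, against 7.09%, Ddit4 was at −0.19 in CB minus air, Fkbp5 at −0.041, Sgk1 at −0.10, Dusp1 at −0.016 and Klf9 at −0.077 in DEP minus air, Cdkn1a at −0.14 and Ddit4 at −0.0082 in CB minus DEP, and Tsc22d3 at 0.10, Sgk1 at 0.023, Dusp1 at 0.015, Cdkn1a at 0.12 and Ddit4 at 0.092 in last minus second round. With the Cy5 signal alone 0 genes had such a p in CB minus air or CB minus DEP, against 4.43% and 2.58% of all features. There Fkbp5 was at 0.039, Cdkn1a at 0.014 and Ddit4 at −0.0088 in CB minus air, Fkbp5 at −0.26 and Zbtb16 at 0.022 in DEP minus air and Fkbp5 at 0.30 in CB minus DEP. With the deposited ratios Fkbp5 was at −0.010 in DEP minus air, and with normexp Sgk1 was at −0.0094.

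Within the first round 19, 199 and 188 features were called in CB minus air, DEP minus air and, last, CB minus DEP, and 2, 1 and 4 genes had an unadjusted p under 0.05, against 6.62%, 7.10% and 9.40% of all features, with medians of 0.36, −0.55 and 0.91. There CB minus air was 0.55 for Fkbp5, 0.36 for Tsc22d3, 1.30 for Cdkn1a, 0.73 for Zbtb16, 1.14 for Klf9, −1.06 for Ddit4 and 0.0087 for Errfi1. DEP minus air was −1.04 for Fkbp5, −0.26 for Sgk1, −0.55 for Dusp1 and −0.81 for Klf9. CB minus DEP was 1.59 for Fkbp5, 0.97 for Tsc22d3, 0.51 for Dusp1, 0.91 for Zbtb16, 1.95 for Klf9, −0.66 for Ddit4 and 0.57 for Errfi1. These rest on 1 mouse of each particle group. Within the second round 3, 1 and 0 genes had such a p, against 5.72%, 3.98% and 3.36%, and Dusp1 was at 0.041 in CB minus air, Ddit4 at 0.52 in DEP minus air and Cdkn1a at −0.35 in CB minus DEP. Within the last round 163 features were called in CB minus air and 186 in CB minus DEP, and 2, 1 and 2 genes had such a p, against 6.89%, 6.22% and 6.43%. There Fkbp5 was at 0.50, Tsc22d3 at 0.25, Sgk1 at −0.28 and Ddit4 at −0.49 in CB minus air, Tsc22d3 at 0.27 and Sgk1 at −0.34 in DEP minus air, and Ddit4 at −0.10 in CB minus DEP.

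With array weights 1 feature was called and 2 genes had an unadjusted p under 0.05 in CB minus air, against 8.68% of all features. Tsc22d3 was then at 0.022 in DEP minus air, Cdkn1a at −0.045 in CB minus DEP, and Fkbp5 at −0.13, Klf9 at −0.022 and Ddit4 at 0.0092 in last minus second round. With the array set as a block Klf9 was at −0.10 and Ddit4 at 0.12 in DEP minus air, Tsc22d3 at 0.093 in last minus second round, and 4 features were called there. With the round as a block 0 genes had such a p in CB minus DEP, against 3.85% of all features. Without the 2 arrays where Zbtb16 was absent, an alternative chosen after seeing the data, 2 genes had such a p in CB minus air, against 7.91% of all features, and Fkbp5 was at 0.0038. Without the arrays where Errfi1 was saturated, also chosen then, Fkbp5 was at −0.077, Cdkn1a at 0.080, Klf9 at −0.10 and Ddit4 at 0.15 in DEP minus air. Cdkn1a was then at −0.35 in CB minus DEP with 0 genes at such a p, against 5.15% of all features. In last minus second round 22 features were called in that setting, with Fkbp5 at −0.18, Klf9 at −0.18 and Ddit4 at 0.015.

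The number of the 36 pairs with an adjusted p under 0.05 for r, 6 in all, was 13 with median centring, 2 without the 2 farthest mice and 0 within the second round, within the last round, with the number of saturated spots removed, and without CB mouse 445. These 2 rounds hold only 12 and 7 mice. The number was 8 with group and round means, group and array set means, or group means and the median Cy5 signal removed. It was 5 with the deposited ratios, with normexp and with the Cy5 signal alone. With the Cy5 signal alone r of Tsc22d3 and Ddit4 was 0.16, and 3 of the 5 positive pairs no longer passed: Fkbp5 with Klf9 (0.51, adjusted p = 0.0512, permutation), Tsc22d3 with Klf9 (0.44, adjusted p = 0.0972) and Zbtb16 with Klf9 (0.39, adjusted p = 0.164). With the deposited ratios Tsc22d3 with Zbtb16 did not pass (0.43, adjusted p = 0.125).

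Leaving out 1 mouse at a time gave 0 to 1 called features in CB minus air (1 without CB mouse 59 or air mouse 442) and 0 to 1 in last minus second round (1 without DEP mouse 51). It gave 1 to 2 genes with an unadjusted p under 0.05 in CB minus air (2 without CB mouse 47 or air mouse 443). Of all 18688 features 937 had such a p without CB mouse 47 and 1255 without air mouse 443. In CB minus DEP leaving out 1 mouse gave 0 to 1 genes. It was 0 without DEP mouse 835435, where Sgk1 was at 0.26 and 800 of all features had such a p. In CB minus air Fkbp5 ranged from −0.16 to 0.092, Dusp1 from −0.17 to 0.0058 and Klf9 from −0.28 to 0.013. In DEP minus air Fkbp5 ranged from −0.072 to 0.15, Tsc22d3 from −0.10 to 0.059, Sgk1 from −0.073 to 0.087, Dusp1 from −0.0013 to 0.19, Cdkn1a from −0.24 to 0.027, Zbtb16 from −0.20 to 0.055, Klf9 from −0.12 to 0.18 and Ddit4 from −0.13 to 0.096. In CB minus DEP Fkbp5 ranged from −0.18 to 0.040, Cdkn1a from −0.15 to 0.16 and Errfi1 from −0.092 to 0.058. In last minus second round Fkbp5 ranged from −0.087 to 0.14, Tsc22d3 from −0.12 to 0.0061, Dusp1 from −0.22 to 0.045, Cdkn1a from −0.16 to 0.10, Klf9 from −0.053 to 0.22 and Ddit4 from −0.21 to 0.034.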
